A study of Mus musculus with 4 samples.

Results

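The suppressors of cytokine signaling (SOCS) examined here were Socs1, Socs2, Socs3 and Cish, chosen by symbol among the RNA features, with earlier results of these data known. They were 4 of the 32285 genes counted in every library. Cytokines such as interleukin-2, interleukin-6 and interferon-γ bind receptors that carry Janus kinases (JAKs), which phosphorylate STAT transcription factors. STATs then switch on, among other genes, the SOCS genes, whose proteins bind receptors or JAKs and dampen the same pathway. SOCS1 and SOCS3 can block the kinase itself, while CIS (the protein of Cish) and SOCS2 occupy phosphorylated receptor sites, and all 4 carry a SOCS box that recruits a ubiquitin ligase. In T cells, Cish and Socs2 are known as targets of STAT5 downstream of interleukin-2, Socs1 as a brake on interferon-γ and interleukin-2 signaling that regulatory T cells depend on, and Socs3 as a brake on interleukin-6 receptor signaling.

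The T cells came from subcutaneous tumors of 105K cells, a Tsc2-deficient mouse kidney tumor line, in the flanks of wild-type male C57BL/6J mice that were 6 weeks old at injection. In the control group (sh-NC, n = 2 libraries) the tumor cells carried a non-targeting short hairpin RNA, and in the knockdown group (sh-B7-H3 (1), n = 2) a hairpin that targets Cd276, which encodes B7-H3, a surface ligand and immune checkpoint. The hairpins were in the tumor cells, which were puromycin-selected pools of transduced cells and not single clones, and both groups lacked Tsc2 in the tumor cells. Live CD3+ cells were sorted and profiled by CITE-seq, droplet sequencing that counts RNA molecules by unique molecular identifiers (UMIs) together with antibody tags, of which only the RNA was used. The labels state that each group was a pool of 80 tumors run on duplicate lanes, so p-values measure only the spread between lanes of 1 pool per group and not the spread between mice. A figure legend of the study instead describes each group's libraries as independent samples, in which case the spread would be that between separate sample pools, and this was not settled here.

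The genes lie on separate chromosomes of the mouse genome (GRCm38/mm10, GENCODE vM21) and all are protein coding. Cish (ENSMUSG00000032578) occupies chr9:107296026-107302784 on the plus strand, Socs2 (ENSMUSG00000020027) chr10:95385362-95417180 on the minus strand, Socs3 (ENSMUSG00000053113) chr11:117966079-117970047 on the minus strand and Socs1 (ENSMUSG00000038037) chr16:10782240-10785536 on the minus strand. The RefSeq promoter table (GRCm38.p6, 250 bases before to 50 bases after the start of transcription) matched 3 of the 4 genes, without an entry for Socs2. These windows were searched on both strands for TTCNNNGAA, the palindrome bound by STAT dimers, and for GAAA repeated after any 2 bases, bound by interferon regulatory factors. The stretches of 30 bases below are shown because they hold those matches, in capitals, near the RefSeq start of genes whose levels are compared here; each is read 5′ to 3′ on the strand of its gene.
Cish, chr9:107296654-107296683: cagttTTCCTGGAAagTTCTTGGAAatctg
Socs3, chr11:117969502-117969531: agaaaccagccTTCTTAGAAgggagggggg
Socs1, chr16:10785597-10785626: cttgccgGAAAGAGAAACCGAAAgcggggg
Cish held 2 matches to TTCNNNGAA and Socs3 held 1, while Socs1 held 2 overlapping matches to the GAAA repeat, which give 1 run of capitals. Of all 32851 promoter windows of the same length, 8.3% held TTCNNNGAA and 0.457% held it more than once, and 3.44% held the GAAA repeat and 0.225% held it more than once. For Cish and Socs3 the RefSeq start lies inside the GENCODE span given above, as do their stretches, whereas for Socs1 both starts coincide and the stretch lies upstream. Counted from the RefSeq start, the Cish matches begin at base 1 and base 12, the Socs3 match covers -154 to -146 and the Socs1 matches -83 to -68. A match is a description of these letters and does not show binding.

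The libraries held 7030 to 12112 called cells and 79224898 to 132820909 RNA UMIs. After limits on genes and mitochondrial RNA and removal of 12.4% to 16.3% of cells as likely doublets, 6315 and 5266 control cells and 3033 and 4045 knockdown cells remained, with median depths of 7821, 8294, 6449 and 6608 UMIs. Between 17 and 35 cell barcodes were shared by any pair of libraries. T cells were classed by RNA: Cd4 cells (1531, 1267, 648 and 854 in control libraries 1 and 2 and knockdown libraries 1 and 2, the order used for all values given as 4 numbers), Cd8 cells (2578, 2263, 1130 and 1553) and Foxp3 cells (312, 302, 165 and 185), Foxp3 being the defining factor of regulatory T cells. The labels can be read against Il2ra, the interleukin-2 receptor α chain, which was not used to class cells: it was at 233 to 306 CPM (UMIs of the gene per 1e6 UMIs) in Foxp3 cells against 6.2 to 8.5 CPM in Cd4 cells and 0.82 to 2.3 CPM in Cd8 cells. The hairpin target could not check the group labels, since Cd276 had only 9 to 11 UMIs among all called T cells of a library.

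Foxp3 cells had the highest Cish, Socs2 and Socs1 of the 3 classes, in every library, whereas Socs3 did not separate the classes. Levels here are CPM after 1 common scaling of the 12 sums of UMIs by class and library. They are not divided by gene length, so each gene is compared only with itself. Differences were tested in edgeR's quasi-likelihood model with the library as a block, with p adjusted by Benjamini-Hochberg over all 11747 genes tested. Of those genes 28.8% passed an adjusted p of 0.05 between Foxp3 and Cd4 cells, 36.9% between Foxp3 and Cd8 cells and 17.6% between Cd8 and Cd4 cells.

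Socs2 had the widest gap. It ranged from 48.8 to 112.5 CPM in Foxp3 cells, with a median of 78.7, from 3.31 to 9.35 CPM (median 5.92) in Cd4 cells and from 2.39 to 6.31 CPM (median 3.85) in Cd8 cells. No Foxp3 value overlapped the others. The Foxp3 level was 14.5-fold that of Cd4 cells (log2 difference 3.86 ± 0.26 (SE), adjusted p = 7.72e-08) and 22.2-fold that of Cd8 cells (4.47 ± 0.26; 3.86 after thinning and 3.84 in the knockdown libraries alone), and Cd8 and Cd4 cells did not differ beyond their spread (-0.61 ± 0.32, adjusted p = 0.225). In the control libraries alone, an alternative chosen after seeing the data, Socs2 was lower in Cd8 than in Cd4 cells (-0.71, adjusted p = 0.0146), as it was without knockdown library 1 (-0.62, adjusted p = 0.0487).

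Cish, the STAT5-induced inhibitor, ranged from 118.4 to 158.7 CPM (median 148.9) in Foxp3 cells, from 26.7 to 91.3 CPM (median 55.8) in Cd8 cells and from 25.4 to 66.6 CPM (median 39.9) in Cd4 cells. The Foxp3 range again lay above both others. The log2 difference was 1.89 ± 0.21 from Cd4 cells (adjusted p = 1.10e-05) and 1.56 ± 0.20 from Cd8 cells (adjusted p = 2.80e-05). Cd8 and Cd4 cells overlapped (0.33 ± 0.19, adjusted p = 0.284), although within the knockdown libraries alone Cish was higher in Cd8 cells (0.52, adjusted p = 0.000336). Fitted by group, the Cish difference of Foxp3 from Cd8 cells was 2.21 for sh-NC and 0.89 for sh-B7-H3 (1).

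Socs1 was ordered Foxp3, Cd8, Cd4 with no overlap. It ranged from 94.2 to 143.0 CPM in Foxp3 cells (median 116.8), from 65.4 to 78.2 CPM in Cd8 cells (median 71.9) and from 47.8 to 57.8 CPM in Cd4 cells (median 56.7). All 3 steps passed the test: 1.12 ± 0.08 for Foxp3 against Cd4 cells (adjusted p = 1.15e-07), 0.73 ± 0.08 for Foxp3 against Cd8 cells, and 0.39 ± 0.07 for Cd8 against Cd4 cells (adjusted p = 0.00113).

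Socs3 overlapped in all 3 classes, with 21.8 to 28.8 CPM in Foxp3 cells (median 25.2), 11.5 to 28.4 CPM in Cd4 cells (median 21.0) and 9.41 to 26.0 CPM in Cd8 cells (median 17.9). None of the differences passed over all libraries (Foxp3 against Cd4 cells 0.20 ± 0.23, adjusted p = 0.574; Foxp3 against Cd8 cells 0.42 ± 0.23, adjusted p = 0.172). The groups differed in this respect: in the knockdown libraries alone Foxp3 cells had higher Socs3 than Cd4 cells (1.01, adjusted p = 0.00411) and Cd8 cells (1.4, adjusted p = 0.000125), and in the control libraries alone they did not (-0.18, adjusted p = 0.378, and -0.04, adjusted p = 0.842). Without control library 1, Foxp3 cells were also higher than Cd8 cells over the remaining libraries (0.74, adjusted p = 0.0372).

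**Figure D1:**
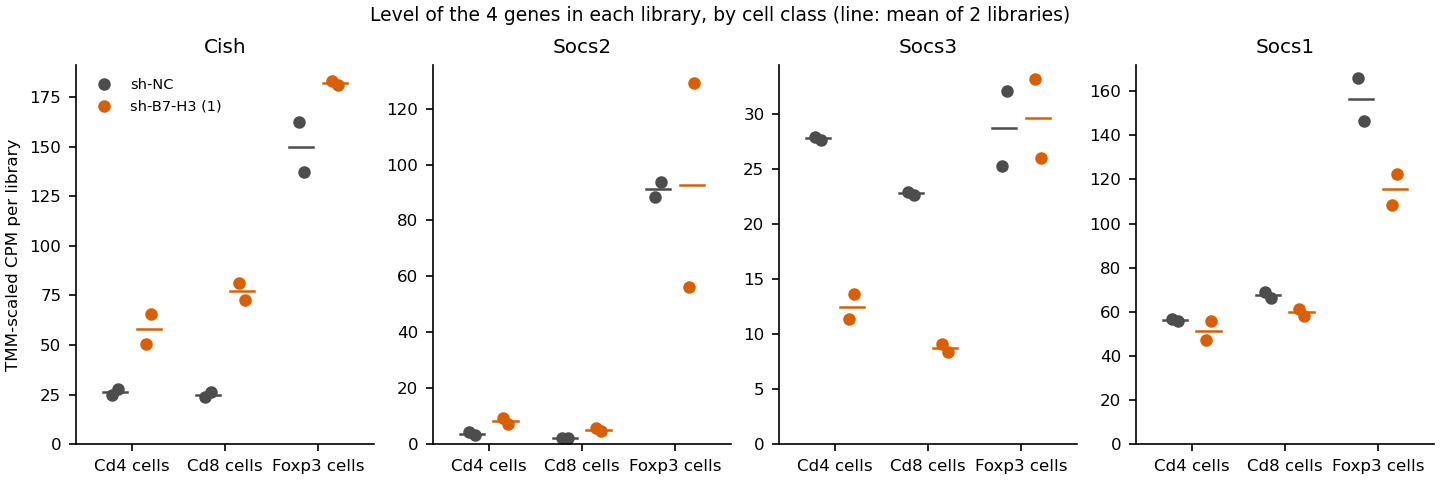
Level of each gene in CPM (linear axis from 0) in Cd4, Cd8 and Foxp3 cells, 1 point per library. Control and knockdown libraries are in separate colors. Values were scaled within each class, so they differ from those under the common scaling of the 12 sums. Foxp3 cells lie above the other classes for Cish, Socs2 and Socs1, and Socs3 is lower in the knockdown libraries of Cd4 and Cd8 cells.

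Within a class, the knockdown libraries had more Cish and Socs2 and less Socs3 than the controls in both Cd4 and Cd8 cells, while in Foxp3 cells only Socs1 passed, at a lower level. Each class was fitted on its own, so CPM values from here on are scaled within the class. All sums over a class mix cells of different states, so a change in the share of a state cannot be told apart from a change within cells.

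In Cd4 cells 3 of the 4 genes passed, against 41.1% of all 10921 genes tested. Cish was at 25.0, 28.0, 50.6 and 65.7 CPM, a rise of 1.16 ± 0.10 on the log2 scale (95% interval 0.95 to 1.37, adjusted p = 3.28e-10). Socs2 was at 4.35, 3.26, 9.22 and 7.30 CPM and also rose (1.09 ± 0.25, adjusted p = 0.00076), although DESeq2 left it just short of the threshold (1.10, adjusted p = 0.0531). Socs3, at 27.9, 27.7, 11.4 and 13.6 CPM, fell by 1.14 on the log2 scale (SE 0.13, adjusted p = 4.02e-08). The control and knockdown libraries of these 3 genes did not overlap. For how many of all genes this held was not counted. Socs1 was at 56.8, 55.8, 47.1 and 55.8 CPM, and its difference did not pass (-0.12 ± 0.08, interval -0.28 to 0.05, adjusted p = 0.272). In the same cells, before scaling, Ikzf2, a transcription factor of many regulatory T cells, was at 38.2, 48.7, 179.1 and 179.2 CPM. Ctla4, an inhibitory receptor abundant in them, was at 14.2, 16.3, 29.6 and 29.9 CPM. Il2ra was at 6.20, 8.10, 7.40 and 8.46 CPM. In Cd8 cells Ikzf2 was at 15.7, 21.5, 85.7 and 85.5 CPM. Ctla4 was there at 4.27, 6.35, 21.9 and 19.9 CPM and Il2ra at 1.12, 0.82, 2.30 and 1.11 CPM. With Cd4 cells that had an Il2ra UMI left out, an alternative chosen after seeing the data, no call of the 4 genes changed. Cells without a detected Il2ra UMI stayed in, so the part of regulatory T cells in the differences was not tested.

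In Cd8 cells all 4 passed, against 44.2% of 11575 genes. Cish was at 23.6, 26.3, 81.4 and 72.9 CPM, the largest rise of the family (1.62 ± 0.07, interval 1.48 to 1.76, adjusted p = 1.20e-15). Socs2, at 2.11, 2.12, 5.62 and 4.73 CPM, rose by 1.27 ± 0.22 (adjusted p = 3.92e-05). Socs3 went from 22.9 and 22.7 CPM to 9.14 and 8.38 CPM, a difference of -1.39 ± 0.11 (adjusted p = 9.47e-11). No library of one group reached into the other for any of the 4. The share of all genes with such a separation was not counted. Socs1 was only slightly lower, at 69.0, 66.4, 61.4 and 58.2 CPM (-0.18 ± 0.05, adjusted p = 0.00753). That call was lost without control library 1 (-0.16, adjusted p = 0.0672), without knockdown library 2 (-0.15, adjusted p = 0.12) and in DESeq2 (-0.20, adjusted p = 0.13), and with cells thinned to an equal depth the difference was -0.07 (adjusted p = 0.629).

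In Foxp3 cells 1 of 4 passed, against 5.98% of 8489 genes. Socs1 was at 165.8, 146.7, 108.6 and 122.7 CPM, lower in both knockdown libraries (-0.43 ± 0.12, interval -0.68 to -0.19, adjusted p = 0.0243). The call was lost without control library 1 (-0.35, adjusted p = 0.304), without knockdown library 1 (-0.35, adjusted p = 0.191) and in DESeq2 (-0.44, adjusted p = 0.14). Cish was at 162.4, 137.1, 183.0 and 181.2 CPM, higher in both knockdown libraries without passing (0.28 ± 0.11, interval 0.05 to 0.51, adjusted p = 0.165). Socs3 overlapped (25.3, 32.1, 33.2 and 26.0 CPM, 0.04 ± 0.24, adjusted p = 0.967). Socs2 set the knockdown libraries apart from each other: it was at 88.5 and 93.9 CPM in the controls but at 56.3 CPM in knockdown library 1 and 129.2 CPM in knockdown library 2. Its pooled difference of 0.04 ± 0.18 (adjusted p = 0.951) became 0.50 (adjusted p = 0.0223) without knockdown library 1 and -0.70 (adjusted p = 0.0127) without knockdown library 2.

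The changes of Socs3 and Cish differed between Foxp3 cells and the conventional classes. The difference of the knockdown effects (interaction) was 1.19 ± 0.28 for Socs3 between Foxp3 and Cd4 cells (adjusted p = 0.00537) and 1.45 ± 0.27 between Foxp3 and Cd8 cells (adjusted p = 0.00057). For Cish it was -0.86 ± 0.16 (adjusted p = 0.000401) and -1.32 ± 0.14 (adjusted p = 6.39e-08). Socs2 passed only against Cd8 cells (-1.19 ± 0.33, adjusted p = 0.0234; against Cd4 cells -1.02 ± 0.34, adjusted p = 0.072), and Socs1 in neither (-0.30 ± 0.14, adjusted p = 0.248, and -0.22, adjusted p = 0.423). Between Cd8 and Cd4 cells none of the 4 passed, with Cish nearest (0.46 ± 0.14, adjusted p = 0.0598; without knockdown library 2 it was 0.75, adjusted p = 0.000831). Over all genes, 6.48% passed between Foxp3 and Cd4 cells, 5.14% between Foxp3 and Cd8 cells and 3.31% between Cd8 and Cd4 cells. The Socs3 difference from Cd4 cells was lost without control library 1 (1.01, adjusted p = 0.095) or knockdown library 1 (0.91, adjusted p = 0.206). The Socs2 difference from Cd8 cells was lost without control library 1 (-1.25, adjusted p = 0.136), control library 2 (-1.16, adjusted p = 0.156) or knockdown library 1 (-0.63, adjusted p = 0.371). It was -2.08 without knockdown library 2, and without that library the Socs2 difference from Cd4 cells passed (-1.95, adjusted p = 0.000131).

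Shares of cells with at least 1 UMI, after each cell was thinned to 2000 UMIs, moved in the same directions for Cish and Socs3. In Cd4 cells 5.01% ± 0.06 of control and 11.4% ± 1.34 of knockdown cells had a Cish UMI (SD, n = 2 libraries each), and in Cd8 cells 5.45% ± 0.18 and 15.0% ± 1.70. For Socs3 the shares were 4.15% ± 0.51 and 2.22% ± 0.05 in Cd4 cells, and 4.15% ± 0.20 and 1.92% ± 0.43 in Cd8 cells. Each of these 4 differences had an exact two-sided permutation p of 0.33, the smallest that 2 against 2 libraries can give. Without thinning, the Cish shares were 12.9% and 25.5% in Cd4 cells and 11.8% and 33.0% in Cd8 cells. The Socs2 share was 0.610% and 1.85% in Cd4 cells and 0.607% and 0.896% in Cd8 cells. Lyz2, a macrophage gene that T cells should lack, had similar shares: 0.636% and 1.43% in Cd4 cells, 0.823% and 1.70% in Cd8 cells. It is not an equal background for Socs2. In barcodes of at most 100 UMIs, Lyz2 was at 47.9, 48.6, 87.4 and 92.6 CPM and Socs2 at 4.95, 7.37, 11.8 and 8.64 CPM. These Socs2 shares are not read as a difference. In Foxp3 cells, where Lyz2 reached 2.30% and 2.03%, the shares were 26.7% and 33.8% for Cish, 24.7% and 17.9% for Socs1 and 14.9% and 16.9% for Socs2.

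Free RNA differed between the groups in the same directions as Cd4 and Cd8 cells for Cish, Socs2 and Socs3. In barcodes of at most 100 UMIs, Cish was at 32.6, 39.3, 84.9 and 66.7 CPM, Socs3 at 39.0, 38.7, 18.6 and 13.5 CPM, Socs2 at 4.95, 7.37, 11.8 and 8.64 CPM and Socs1 at 62.5, 73.4, 56.6 and 56.3 CPM. Socs2 was at 2.03 to 9.64 CPM in Cd4 and Cd8 cells before TMM scaling, so in every library its level in free RNA lay above that in both classes. On that scale Socs3 was at 26.9, 26.7, 11.9 and 13.9 CPM in Cd4 and 22.0, 22.1, 9.46 and 8.61 CPM in Cd8 cells. Free RNA lay above these Socs3 levels except for Cd4 cells of knockdown library 2. Cish was at 24.0, 27.0, 52.9 and 67.2 CPM in Cd4 and 22.7, 25.7, 84.3 and 74.9 CPM in Cd8 cells. Free RNA lay above these Cish levels except in knockdown library 2. The part of free RNA in the differences was not tested. Cells rich in myeloid UMIs had Cish at 23.9, 26.5, 42.1 and 82.5 CPM and Socs3 at 26.5, 41.8, 25.3 and 16.5 CPM, so both genes were also counted there. These cells were taken before doublet removal and also held T cell RNA, with Cd3e at 411.0, 425.0, 486.1 and 508.7 CPM. Which cells the counts came from was not tested.

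A list of 16 immediate-early genes known to respond to tissue dissociation was lower along with Socs3 in Cd4 and Cd8 cells, and was also lower in sum in Foxp3 cells, where Socs3 did not pass. Its summed level was 2342, 2342, 1776 and 1770 CPM in Cd4 cells, 1570, 1598, 1359 and 1326 CPM in Cd8 cells and 3022, 3180, 2865 and 2800 CPM in Foxp3 cells. In Cd4 cells 10 of the 15 tested fell and 0 rose (median -0.38 against 0.0016 over all genes), in Cd8 cells 10 fell and 1 rose of 15 (median -0.35), and in Foxp3 cells 3 fell and 1 rose of 14 (median -0.16). Of all genes tested, 20.1% fell in Cd4 cells, 21.8% in Cd8 cells and 2.77% in Foxp3 cells. Jun, a subunit of the AP-1 factor, was at 401.9, 392.3, 146.2 and 148.4 CPM in Cd4 cells (-1.43), and Fos, its partner, at 48.3, 44.7, 11.4 and 18.2 CPM (-1.61). The part of these genes in the Socs3 difference was not tested.

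The makeup of Cd4 and Cd8 cells differed between the groups, and the 4 genes were spread unevenly over it. Effector-marked cells had at least 3 UMIs of Nkg7, Gzmk, Gzmb, Ccl5, Cst7, Ccl4 and Ifng, genes of killing and inflammation, and at most 1 of a list of genes of resting recirculating T cells that includes Ccr7, Lef1 and S1pr1. They made up 9.21%, 11.4%, 54.3% and 52.0% of Cd4 cells, 14.1%, 18.1%, 63.9% and 61.1% of Cd8 cells and 26.6%, 28.5%, 42.4% and 50.3% of Foxp3 cells. Resting-marked cells had at least 2 UMIs of the resting list and at most 1 of the effector genes. In the Cd4 class they made up 79.9%, 74.3%, 18.4% and 17.0% of cells. Most other Cd8 cells carried both sets (double-marked, at least 3 and at least 2 UMIs): 72.5%, 72.4%, 32.8% and 35.5% of the class. The double-marked state, and for Foxp3 cells the group with fewer than 3 effector UMIs, were added after seeing the data, because resting-marked Cd8 and Foxp3 cells were too few to fit. The marker genes themselves differed between the groups, in cells and in free RNA: Nkg7 was at 360.8, 453.7, 3163 and 2855 CPM in Cd4 cells and at 537.7, 556.6, 1389 and 1381 CPM in barcodes of at most 100 UMIs. Values within a marked state are therefore descriptions of cells gated by RNA that moved with the group, and do not separate a change in the share of states from a change within cells.

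Of all Cish UMIs in Cd8 cells, effector-marked cells held 75.7%, 86.0%, 92.8% and 92.2%, with 9.79%, 12.6%, 55.0% and 51.0% of all UMIs of the class. In Cd4 cells they held 48.1%, 45.6%, 80.9% and 82.7% of the Cish UMIs, with 7.62%, 9.37%, 53.0% and 49.6% of all UMIs. Cish was thus concentrated in effector-marked cells in all 4 libraries. Socs3 went the other way, with 4.36%, 4.29%, 24.5% and 38.1% of its Cd4 UMIs and 5.68%, 5.65%, 39.7% and 33.7% of its Cd8 UMIs in effector-marked cells, below their part of all UMIs throughout. Socs2 had only 33 to 57 UMIs in a library's Cd4 or Cd8 class, of which effector-marked cells held 57.6% to 95.8%.

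**Figure D2:**
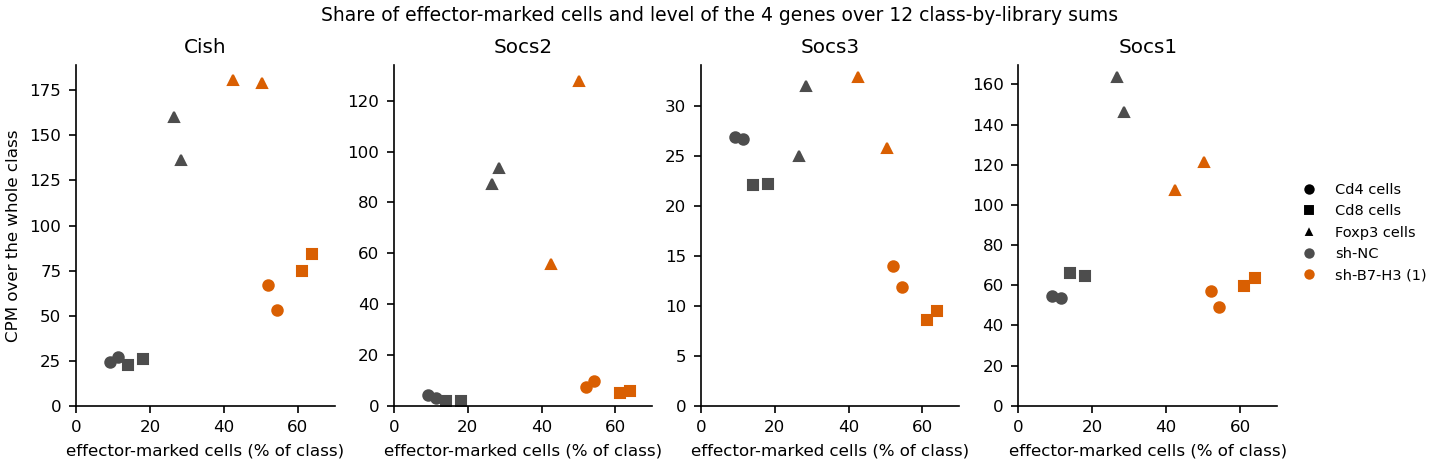
Share of effector-marked cells in a class (x axis, percent) against the level of each gene over the whole class (y axis, CPM before TMM scaling), for 12 sums of 3 classes (shape) and 4 libraries (color). The knockdown sums of Cd4 and Cd8 cells lie at 52.0% to 63.9% effector-marked cells with higher Cish and lower Socs3, and Foxp3 sums lie above both classes for Cish, Socs2 and Socs1 at 26.6% to 50.3%.

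Compared within the same library, effector-marked cells had more Cish and Socs2 and less Socs3 than resting-marked Cd4 cells and double-marked Cd8 cells. In Cd4 cells, where 50% of genes differed between effector-marked and resting-marked cells, Cish was at 128.1, 112.6, 73.4 and 102.6 CPM in the first and 13.8, 14.3, 12.7 and 9.49 CPM in the second, 8.5-fold higher (3.09 ± 0.13, adjusted p = 2.34e-15). Socs3 was at 13, 10.5, 5.00 and 9.80 CPM against 31.8, 31.5, 22.6 and 24.9 CPM (-1.53 ± 0.21, adjusted p = 1.59e-06). Both directions held in 4 of 4 libraries. Socs2 was higher in 3 of 4 libraries (32.5, 16.6, 10.4 and 10.7 CPM against 0.92, 1.4, 11.3 and 1.19 CPM; 3.54 ± 0.52, adjusted p = 3.83e-06). Leaving out control library 1 gave 2.25 for this difference and leaving out knockdown library 1 gave 4.32. Socs1 was higher by 0.32 ± 0.12 (adjusted p = 0.026), a call lost without control library 2 (0.25, adjusted p = 0.178) and without knockdown library 2 (0.28, adjusted p = 0.0966). The Socs1 call was also lost with the upper limit of 6000 genes (0.25, adjusted p = 0.0783). Against the few double-marked Cd4 cells, where 29.3% of genes differed, Cish was again higher (1.10 ± 0.15, adjusted p = 3.59e-06). Socs3 was lower there (-1.12 ± 0.37, adjusted p = 0.023), a call lost without control library 2 (-0.95, adjusted p = 0.111) and without knockdown library 1 (-0.77, adjusted p = 0.205), and Socs2 (0.97 ± 0.42, adjusted p = 0.0901) and Socs1 (0.18, adjusted p = 0.441) did not pass, although Socs2 passed with the upper limit of 6000 genes (1.19, adjusted p = 0.012).

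In Cd8 cells 54.7% of genes differed between effector-marked and double-marked cells. Cish was at 152.1, 152.4, 127.4 and 121.5 CPM in effector-marked and 5.90, 4.82, 15.7 and 14.2 CPM in double-marked cells, 17.9-fold higher (4.16 ± 0.23). Socs2 (15.7, 10.3, 9.09 and 7.95 CPM against 0.31, 0.75, 0.68 and 0.87 CPM) was higher by 4.28 ± 0.34, and Socs1 (113.1, 107.9, 74.3 and 65.7 CPM against 65.3, 61.0, 47.7 and 54.8 CPM) by 0.65 ± 0.09. Socs3 was lower (11.1, 8.64, 6.12 and 5.10 CPM against 24.7, 25.4, 14.6 and 14.2 CPM; -1.36 ± 0.14). All 4 passed and each direction held in 4 of 4 libraries. With no doublet removal the Cish difference was 3.44 and that of Socs2 3.16, and leaving out control library 1 gave 3.58 for Socs2.

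In Foxp3 cells Socs2 and Cish were higher in effector-marked cells. Between effector-marked Foxp3 cells and those with fewer than 3 effector UMIs, where 15% of genes differed, Socs2 was higher by 0.69 ± 0.16 (126.9, 134.1, 79.6 and 140.9 CPM against 70.3, 81.4, 43.3 and 110.3 CPM, adjusted p = 0.00559) and Cish by 0.58 ± 0.14 (229.1, 164.5, 253.2 and 236.1 CPM against 128.4, 141.5, 169.8 and 146.0 CPM, adjusted p = 0.00869). Socs1 (0.11) and Socs3 (-0.17) did not pass. The Cish call was lost without control library 1 (0.46, adjusted p = 0.0714) and the Socs2 call without control library 2 (0.67, adjusted p = 0.0622).

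**Figure D3:**
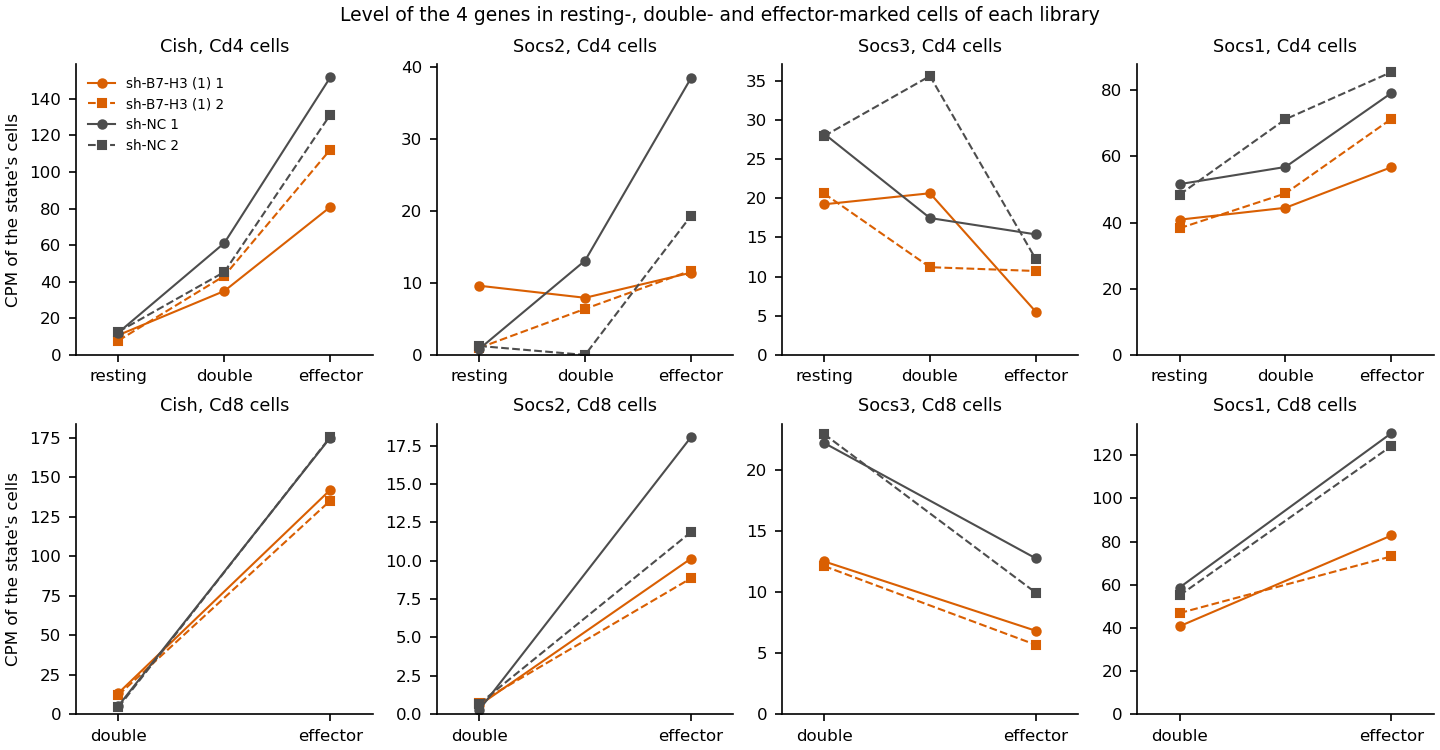
Level of each gene in CPM before TMM scaling within marked states of Cd4 and Cd8 cells, 1 point per library and state. Cish and Socs2 are higher, and Socs3 lower, in effector-marked than in resting-marked Cd4 cells and than in double-marked Cd8 cells.

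Within effector-marked Cd4 and Cd8 cells the knockdown libraries did not have higher Cish or Socs2; where a difference passed, it was lower. In effector-marked Cd4 cells, where 6.8% of genes passed, Cish was at 146.4, 129.3, 84.1 and 117.5 CPM (-0.43 ± 0.13, adjusted p = 0.0396) and Socs2 at 37.1, 19.0, 11.9 and 12.3 CPM (-1.20 ± 0.31, adjusted p = 0.00989). Socs3 (14.9, 12, 5.72 and 11.2 CPM, -0.61 ± 0.40, adjusted p = 0.459) and Socs1 (76.4, 84.2, 59.0 and 74.7 CPM, -0.25 ± 0.15, adjusted p = 0.394) did not pass. Both calls were fragile. The Cish call was lost without control library 1 (-0.35, adjusted p = 0.229), without knockdown library 1 (-0.22, adjusted p = 0.666), with no doublet removal (-0.32, adjusted p = 0.128) and with an upper limit of 6000 genes (-0.34, adjusted p = 0.144), and the Socs2 call without control library 1 (-0.66, adjusted p = 0.482). Il2ra in these cells was at 26.4, 11.2, 6.35 and 4.02 CPM, Ctla4, an inhibitory receptor abundant in regulatory T cells, at 91.2, 68.2, 38.1 and 46.9 CPM, Ikzf2, a transcription factor of many regulatory T cells, at 288.0, 232.0, 302.7 and 300.7 CPM, and the summed list of 8 myeloid genes at 260.5, 344.0, 63.5 and 26.8 CPM. With Cd4 and Cd8 cells that had an Il2ra UMI left out, an alternative chosen after seeing the data, Socs2 no longer passed (-0.90, adjusted p = 0.104); the part of the myeloid RNA was not tested.

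In effector-marked Cd8 cells, where 8.76% passed, Socs1 had the clearest difference, at 128.3, 122.2, 84.7 and 75.1 CPM (-0.66 ± 0.08, adjusted p = 2.44e-06). Cish was at 172.5, 172.6, 145.3 and 138.8 CPM (-0.28 ± 0.06, adjusted p = 0.00373), lost without knockdown library 2 (-0.25, adjusted p = 0.0616). In both genes the knockdown libraries lay below the controls without overlap. How many of all genes were separated in this way was not counted. Socs3 (12.6, 9.78, 6.98 and 5.83 CPM, -0.80 ± 0.28, adjusted p = 0.0762) and Socs2 (17.8, 11.7, 10.4 and 9.08 CPM, -0.59 ± 0.25, adjusted p = 0.152) were lower in both knockdown libraries without passing, although Socs3 passed with no doublet removal (-0.84, adjusted p = 0.0268).

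In double-marked Cd8 cells Cish rose. It was at 5.19, 4.24, 13.8 and 12.5 CPM, 2.74-fold higher in the knockdown libraries (1.45 ± 0.19, adjusted p = 5.76e-06), against 7.68% of genes that passed. These levels stayed below those of effector-marked Cd8 cells in each library, and below those in free RNA (32.6, 39.3, 84.9 and 66.7 CPM), which differed in the same direction and whose part was not tested. Socs3 fell from 21.8 and 22.3 CPM to 12.9 and 12.5 CPM (-0.80 ± 0.13, adjusted p = 0.00013). The summed immediate-early list was also lower in these cells, at 1513, 1536, 1136 and 1136 CPM, and its part was not tested. Socs1 was at 57.5, 53.5, 41.9 and 48.2 CPM (-0.28 ± 0.08, adjusted p = 0.0362), a call lost without control library 1 (-0.23, adjusted p = 0.403), control library 2 (-0.34, adjusted p = 0.0974) or knockdown library 1 (-0.21, adjusted p = 0.232). Socs2 was below the filter on low counts.

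In resting-marked Cd4 cells none of the 3 genes tested passed, against 1.74% of all genes. Socs3 was at 27.2, 27.0, 19.8 and 21.8 CPM (-0.38 ± 0.23, adjusted p = 0.604), Cish at 11.8, 12.2, 11.1 and 8.29 CPM (-0.32, adjusted p = 0.822) and Socs1 at 49.7, 46.8, 42.1 and 40.4 CPM (-0.23, adjusted p = 0.681). The few double-marked Cd4 cells (30, 38, 81 and 161), where 0.968% of genes passed, gave no call for Socs1 (-0.21, adjusted p = 0.872) or Cish (-0.13, adjusted p = 0.947).

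In effector-marked Foxp3 cells, where 1.18% of genes passed, Socs1 was at 260.2, 176.5, 123.3 and 114.7 CPM (-0.87 ± 0.21, adjusted p = 0.0174). Both knockdown libraries lay below both controls, which differed widely from each other. The call was lost without control library 1 (-0.57, adjusted p = 0.495), without knockdown library 2 (-0.82, adjusted p = 0.166), with no doublet removal (-0.78, adjusted p = 0.128) and with the limit of 6000 genes (-0.72, adjusted p = 0.113). In Foxp3 cells with fewer than 3 effector UMIs, where 3.15% passed, none of the 4 genes passed, and Socs1 was at 135.4, 145.3, 95.2 and 136.4 CPM.

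**Figure D4:**
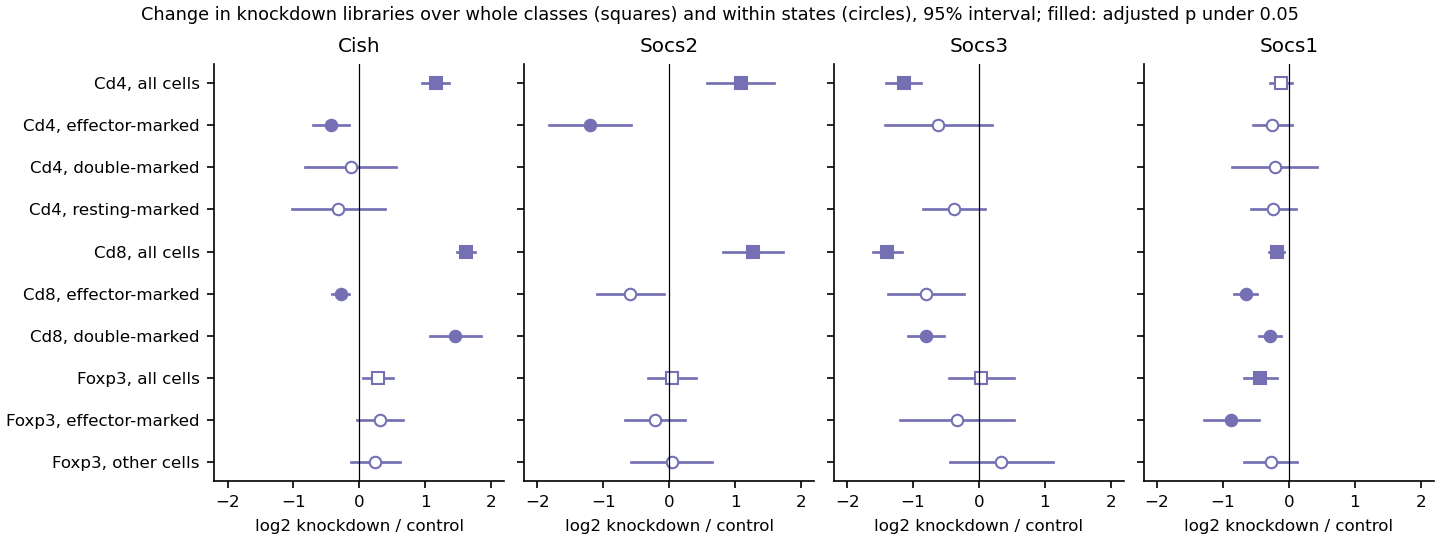
Log2 difference of knockdown against control libraries for each gene, over whole classes and within marked states, with 95% intervals of edgeR's quasi-likelihood fit (n = 2 libraries a group). Cish lies above 0 over all Cd4 and Cd8 cells (1.16 and 1.62) and below 0 in their effector-marked cells (-0.43 and -0.28), and Socs1 is lowest in effector-marked Cd8 (-0.66) and Foxp3 cells (-0.87).

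Cells were also split by a single UMI of a cytokine receptor or cytokine, each side summed within the library. Such a split follows depth as well as state, since deeper cells are more likely to have the UMI. Il2ra was scarce in Cd4 cells (6.2 to 8.5 CPM) and abundant in Foxp3 cells (233 to 306 CPM). Few Cd4 cells thus had an Il2ra UMI, and the whole Cd4 class held only 50, 33, 43 and 45 Socs2 UMIs. Socs2 levels of Cd4 cells with Il2ra therefore rest on few UMIs. Cd4 cells were classed by 0 Foxp3 UMIs. Whether those with Il2ra included regulatory T cells with undetected Foxp3 was not tested. By Il2ra, Cd4 cells with a UMI had higher Socs2 (56.8, 25.6, 44.0 and 43.4 CPM against 3.03, 2.50, 8.53 and 6.45 CPM; 3.23 ± 0.42, adjusted p = 7.79e-06), Cish (1.16 ± 0.22, adjusted p = 0.00128) and Socs1 (0.83 ± 0.20, adjusted p = 0.017), against 2.76% of genes that passed. Socs1 was higher in 3 of 4 libraries, and in knockdown library 1 it was at 44.0 CPM with and 50.5 CPM without Il2ra. Its call was lost without control library 2 (0.73, adjusted p = 0.175) and without knockdown library 2 (0.66, adjusted p = 0.13). Foxp3 cells with Il2ra had the same 3 genes higher, against 2.94% of genes: Cish at 211, 177.8, 273.2 and 242.2 CPM against 91.9, 74.9, 86.1 and 109.8 CPM (1.3 ± 0.12, adjusted p = 2.47e-07), Socs2 by 1.58 ± 0.17 (adjusted p = 1.82e-06) and Socs1 by 0.60 ± 0.12 (adjusted p = 0.00552; without control library 1 0.44, adjusted p = 0.123). Socs3 passed in neither class (0.10, adjusted p = 0.966, in Cd4 cells).

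Il7r, the interleukin-7 receptor of resting and memory T cells, marked the reverse. Cd4 cells with an Il7r UMI had Cish at 17.0, 17.7, 24.0 and 28.8 CPM against 47.2, 55.2, 64.4 and 87.5 CPM without it (-1.54 ± 0.09, adjusted p = 3.55e-06), lower Socs2 (-1.07 ± 0.26, adjusted p = 0.0117; without control library 2 -0.87, adjusted p = 0.0603) and higher Socs3 (0.79 ± 0.15, adjusted p = 0.00323), with 27.1% of genes passing. Cd8 cells, with 32.6% passing, had Cish at 7.76, 5.95, 31.7 and 25.5 CPM against 68.6, 75.9, 104.9 and 102.2 CPM (-2.66 ± 0.27), Socs2 lower by -2.76 ± 0.35 (-1.86 with no doublet removal), Socs3 higher by 0.87 ± 0.14 and Socs1 lower by -0.31 ± 0.07. In Foxp3 cells none of the 4 passed, against 4.98% of genes.

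Cells with a UMI of Ifng, the interferon-γ gene and 1 of the 7 genes that marked effector cells, had Cish at 123.8, 112.1, 74.2 and 93.6 CPM against 18.5, 21.4, 40.2 and 56.3 CPM in Cd4 cells (1.66 ± 0.32, adjusted p = 0.00356) and lower Socs3 (-0.81 ± 0.16, adjusted p = 0.00399), where 38.6% of genes passed. Socs2 in Cd4 cells passed narrowly (1.28 ± 0.44, adjusted p = 0.0476) and was lost without control library 1 (0.67, adjusted p = 0.186), control library 2 (1.24, adjusted p = 0.108) or knockdown library 2 (1.43, adjusted p = 0.0855). In Cd8 cells, where 37.9% passed, Cish (2.2 ± 0.36), Socs2 (2.57 ± 0.38) and Socs1 (0.50 ± 0.10) were higher and Socs3 (-0.92 ± 0.19) lower in cells with Ifng.

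**Figure D5:**
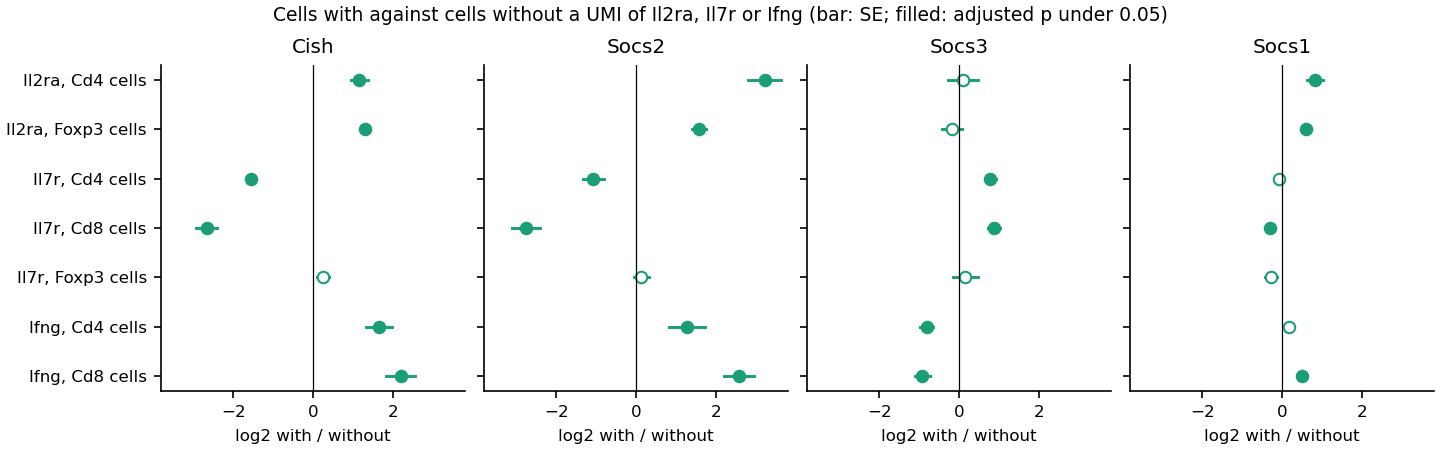
Log2 difference of each gene between cells with and without a UMI of Il2ra, Il7r or Ifng, within a library, for the classes with enough cells. Bars are standard errors of edgeR's fit and filled points passed an adjusted p of 0.05. Cish and Socs2 lie above 0 with Il2ra in Cd4 and Foxp3 cells and, in Cd4 and Cd8 cells, above 0 with Ifng and below 0 with Il7r, where Socs3 takes the opposite sign for Il7r and Ifng.

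The rest of the JAK-STAT pathway was described by 8 lists of its known parts and targets, in the same models over whole classes. Their counts can be read against the share of all genes that passed: 41.1% in Cd4 cells (21% higher and 20.1% lower), 44.2% in Cd8 cells (22.4% higher and 21.8% lower) and 5.98% in Foxp3 cells (3.22% higher and 2.77% lower). Most of the lists are small, and counts near those shares are not results about a list. The other SOCS genes, Socs4 to Socs7, gave 0 calls of 4 tested in each class. Of the 5 parts of the SOCS box ligase, Elob (elongin B) and Eloc (elongin C) rose in Cd4 cells (0.28 and 0.20) and in Cd8 cells (0.21 and 0.20), Cul5 fell in Cd4 cells (-0.28), and none passed in Foxp3 cells. Of the 4 Janus kinases 2 rose and 1 fell in Cd4 cells, 3 rose and 1 fell in Cd8 cells and none passed in Foxp3 cells. Jak1, the kinase paired with most of these receptors, was the one that fell, from 337.9 and 333.7 CPM to 278.0 and 278.1 CPM in Cd4 cells (-0.27) and by -0.25 in Cd8 cells.

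Among 19 cytokine receptor genes, 6 rose and 8 fell of 17 tested in Cd4 cells, 7 rose and 7 fell of 18 in Cd8 cells, and 3 rose and 1 fell of 17 in Foxp3 cells. Il2rb, the β chain shared by the interleukin-2 and interleukin-15 receptors, was at 70.9, 84.2, 581.9 and 540.4 CPM in Cd4 cells (2.86 ± 0.06), rose by 1.86 in Cd8 cells and by 0.47 in Foxp3 cells (adjusted p = 0.000287). Il10ra rose in all 3 classes (2.21, 2.15 and 0.79), Il7r fell in all 3 (-1.55, -1.38 and -0.24), and Il6ra, which binds the cytokine that SOCS3 restrains, fell in Cd4 (-1.35) and Cd8 cells (-1.34) and did not pass in Foxp3 cells (-0.56). Of the ligands, Ifng rose in Cd4 (38.0, 54.5, 241.1 and 181.5 CPM, 2.19), Cd8 (2.49) and Foxp3 cells (2.87); 1 of 5 tested rose and 1 fell in Cd4 cells, 1 of 2 rose in Cd8 cells and 2 of 2 rose in Foxp3 cells.

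The STAT factors are given in part only, with no count over the family. Stat3 rose in Cd4 (0.65) and Cd8 cells (0.35), Stat4 in Cd4 cells (0.65), and Stat5b, a factor that induces Cish, fell in Cd4 (-0.37) and Cd8 cells (-0.26).

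Of 11 STAT5 target genes 3 rose and 5 fell in Cd4 cells, 4 rose and 6 fell in Cd8 cells and 3 fell in Foxp3 cells. Myc fell in all 3 (-0.78, -0.90 and -0.88), and Bcl2, a survival gene, rose in Cd4 (0.18) and Cd8 cells (0.35) and fell in Foxp3 cells (-0.72). Of 10 other JAK-STAT inhibitors 3 rose and 3 fell in Cd4 cells, 2 rose and 2 fell in Cd8 cells and none passed in Foxp3 cells, with Ptpn2, a phosphatase of JAK proteins, lower in Cd4 (-0.38) and Cd8 cells (-0.30).

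Over the 12 sums of class and library, which share libraries and cell makeup, the genes of the family were compared by Pearson's r on log2 CPM as a description. Socs2 and Cish were most alike (r = 0.877), followed by Socs1 and Socs2 (0.779) and Socs1 and Cish (0.658), while Socs3 was at 0.420 with Socs1, 0.197 with Socs2 and -0.178 with Cish. Among 4642 genes of at least 20 CPM, those most like Cish were Ttc39c (r = 0.984), Lilrb4a, Eva1b, Mt1 and Ppp1r12a (0.975), and those most like Socs2 were Sla (0.988), Syngr2, Mxd1, N4bp1 and Klrg1 (0.985). For Socs1 they were Aup1 (0.955), Fam107b, Mbd2, Eef1akmt1 and Lztfl1 (0.940), and for Socs3 Tnfaip8l2 (0.954), Gpx1, Ddit4, Spop and Krcc1 (0.939).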

How the data were processed

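Droplet libraries (10x Genomics 3′ chemistry) were aligned and counted by the authors with Cell Ranger against mm10, and the deposited matrices hold UMI counts per gene and barcode, with antibody tags that were not used here. The authors analysed them in Seurat 4.0.0. Here, cells with 200 to 3000 genes and at most 5% mitochondrial UMIs were kept, and doublets were removed by the share of simulated doublets (2 per cell) among neighbors on 30 principal components of 2000 variable genes. T cells had at least 1 UMI of Cd3d, Cd3e or Cd3g. Cd4 cells had at least 1 Cd4 UMI and 0 of Cd8a, Cd8b1 and Foxp3; Cd8 cells at least 3 of Cd8a and Cd8b1 and 0 of Cd4 and Foxp3; Foxp3 cells at least 1 of Foxp3 and 0 of Cd8a and Cd8b1.

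Raw counts were summed per library and class or state and tested with edgeR 4.0.16 (quasi-likelihood, TMM scaling, filterByExpr; R 4.3.3), with p adjusted by Benjamini-Hochberg over all genes tested and called below 0.05. States with fewer than 20 cells in a library were not fitted. DESeq2 1.42.0 was an alternative. Shares of cells used 2000 UMIs per cell and exact permutation tests over libraries. The members and gene lists were chosen with earlier results of these data known. Named list genes were up to 4 called in Cd4 cells with the largest change among those with a mean of at least 20 CPM. Replicate numbers do not pair the libraries: same-numbered libraries had correlations of their deviations of -0.015, -0.099 and 0.0091 in Cd4, Cd8 and Foxp3 cells. The labels give duplicate lanes of 1 pool per group; the study's methods describe loading of a single lane and a legend independent samples. Some genes of the marker and pathway lists are not reported here.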

Additional observations from a re-analysis of the deposited data

Results flagged for a closer look

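The knockdown effects of Socs3 and Cish differed between Foxp3 cells and both conventional classes by a test of the difference itself. That of Socs2 passed only against Cd8 cells. Of all 11747 genes tested, 6.48% passed between Foxp3 and Cd4 cells and 5.14% between Foxp3 and Cd8 cells. Between Foxp3 and Cd4 cells the log2 difference of effects was 1.19 for Socs3 and -0.86 for Cish. Between Foxp3 and Cd8 cells it was 1.45 for Socs3, -1.32 for Cish and -1.19 for Socs2. The Cish differences and that of Socs3 from Cd8 cells were kept when any 1 library was left out, whereas those of Socs3 from Cd4 cells and of Socs2 from Cd8 cells were not.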

How the results depend on the processing

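Of 1161 alternative values, 1032 kept direction and side of the threshold (or stayed within 1.5 times for counts, or kept direction alone for shares of cells). Counts of genes called moved with DESeq2 to 2124 (Cd4), 2826 (Cd8) and 208 (Foxp3), with a fold limit to 1225, 1129 and 97, and with cells thinned to 2000 UMIs to 2137, 2936 and 120 for the knockdown and 1089 (Cd8 against Cd4), 1773 (Foxp3 against Cd4) and 2478 (Foxp3 against Cd8) for the classes. In Foxp3 cells they were 168 with no filter on low counts, 296 at 10% mitochondrial UMIs and 299 with stricter class thresholds. The knockdown libraries alone gave 2094 (Foxp3 against Cd4) and 2529 (Foxp3 against Cd8), and the control libraries alone 3352 (Cd8 against Cd4). Socs1 in Foxp3 cells lost its call with no filter (-0.45), DESeq2 (-0.44), the fold limit (-0.43), 10% mitochondrial UMIs (-0.40), stricter thresholds (-0.35) and thinning (-0.41); in Cd8 cells with DESeq2 (-0.20), the fold limit (-0.18) and thinning (-0.073); and gained one in Cd4 cells at 10% mitochondrial UMIs (-0.21, adjusted p = 0.0418). Socs2 in Cd4 cells lost its call in DESeq2 (1.10). Between Cd8 and Cd4 cells Socs2 passed with no filter (-0.59) and in the control libraries alone (-0.71), and Cish with no filter (0.35), thinning (0.60) and the knockdown libraries alone (0.52); the Cish difference of effects passed with up to 6000 genes (0.50). Socs3 between classes passed in the knockdown libraries alone (1.01 and 1.4) and reversed in the control libraries alone (-0.18 and -0.045). Effects in Foxp3 cells that did not pass changed sign: Socs3 with the top 10% of doublet scores removed (-0.12), 10% mitochondrial UMIs (-0.083), 6000 genes (-0.026) and thinning (-0.25), and Socs2 with 10% mitochondrial UMIs (-0.11), stricter thresholds (-0.085), myeloid cells left out (-0.096) and thinning (-0.0026). Shares changed sign for Socs1 in Cd4 cells unthinned (-2.59 percentage points), and in Foxp3 cells for Socs1 at 1000 UMIs (0.62), Socs2 unthinned (-2.57) and at 1000 UMIs (-0.61) and Socs3 unthinned (-2.71) and at 1000 UMIs (-0.045). The cause of these changes was not tested.

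Leaving out each library in turn gave these ranges for results over whole classes whose call or sign changed. For states and splits, only values that did not pass and changed sign are listed, and lost calls are given with their results above. Knockdown effects ran from -0.22 to -0.15 for Socs1 in Cd8 cells and, in Foxp3 cells, from -0.53 to -0.35 for Socs1, -0.70 to 0.50 for Socs2, -0.14 to 0.21 for Socs3 and 296 to 467 genes called. Class differences ran from 1178 to 1963 genes (Cd8 against Cd4) and 2242 to 3128 (Foxp3 against Cd4), -0.66 to -0.51 for Socs2 (Cd8 against Cd4), and for Socs3 from -0.051 to 0.48 (Foxp3 against Cd4) and 0.16 to 0.74 (Foxp3 against Cd8). Differences of effects ran, for Cd8 against Cd4, from -0.068 to 0.35 (Socs2), -0.21 to 0.097 (Socs1) and 0.23 to 0.75 (Cish), for Foxp3 against Cd4 from 0.91 to 1.5 (Socs3) and -1.95 to -0.40 (Socs2), and for Foxp3 against Cd8 from -2.08 to -0.63 (Socs2). Values that did not pass and changed sign ran from -0.31 to 0.049 (Cish) and -0.37 to 0.065 (Socs1) in double-marked Cd4 cells, -0.72 to 0.11 (Socs2) and -1.24 to 0.30 (Socs3) in effector-marked and -0.79 to 0.56 (Socs2) in other Foxp3 cells, -0.15 to 0.28 (Socs1) and -0.39 to 0.14 (Socs3) between those states, -0.34 to 0.46 (Socs3) in Cd4 and -0.35 to 0.14 (Socs3) in Foxp3 cells by Il2ra, and -0.15 to 0.017 (Socs1) in Cd4 and -0.096 to 0.22 (Socs2) and -0.21 to 0.45 (Socs3) in Foxp3 cells by Il7r. Shares ran from -0.41 to 0.94 percentage points (Socs1, Cd4), -0.43 to 0.23 (Socs1, Cd8), -3.12 to 7.06 (Socs2, Foxp3) and -2.49 to 2.83 (Socs3, Foxp3).

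With the replicate number as a block, which does not pair these libraries, 4313, 5120 and 612 genes were called in Cd4, Cd8 and Foxp3 cells. Cish changed by 1.13, 1.62 and 0.29, and no call of the 4 genes changed. By the labels the libraries were 2 lanes of 1 pool per group, while a legend of the study describes independent samples. Spread between single animals was not measured in either case, and the shallowest states (Foxp3 and double-marked Cd4 cells) leave wide intervals. Resting-marked Cd8 and Foxp3 cells, Cd8 cells split by Il2ra and Foxp3 cells split by Ifng could not be fitted.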
